A study of Mus musculus with 8 samples.

Results

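Sinusoidal endothelial cells line the smallest blood vessels of the liver, and 10 genes that mark them, *Stab1*, *Stab2*, *Lyve1*, *Clec4g*, *Pecam1*, *Kdr*, *Ehd3*, *Oit3*, *Tek* and *Plvap*, were followed in livers of FxrKO and Bcl6LKOFxrKO males. The 10 were taken by their symbols from the 24940 genes of the count table, and all 10 were among the 12340 genes that passed the expression filter and were tested. RNA of whole liver was sequenced from 4 FxrKO and 4 Bcl6LKOFxrKO mice of the C57BL/6 strain. Both groups carried floxed *Bcl6* (*Bcl6* fl/fl) and were homozygous for the whole-body knockout of *Fxr* (*Nr1h4*), the bile acid receptor gene, and Bcl6LKOFxrKO mice also carried Alb-Cre. Cre under the albumin promoter deletes *Bcl6*, a transcriptional repressor gene, in hepatocytes, so the endothelial cells of both groups lacked *Fxr* and were not themselves the target of Cre. No liver with intact *Fxr* and no liver with Alb-Cre alone was analysed here, and the age of the mice is not given in the sources used here.

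Sinusoidal endothelial cells differ from those of other vessels in that they are pierced by fenestrae and rest on no continuous basement membrane, which lets plasma reach the hepatocytes. They clear hyaluronan, modified proteins and immune complexes from blood through scavenger and lectin receptors, and they depend on vascular endothelial growth factor (VEGF), which comes largely from hepatocytes. In chronic liver injury they can lose their fenestrae and gain a basement membrane and genes of continuous vessels, a change known as capillarization. In whole liver RNA, fewer cells of a type and less RNA per cell cannot be told apart.

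Regulatory sequence was available for 6 of the 10 genes, from RefSeq's mouse annotation (build GRCm38.p6), as 250 bases before and 50 bases after the start of the gene. *Lyve1*, *Pecam1*, *Oit3* and *Plvap* had no entry. The sequences of *Stab2* and *Stab1* are shown because these paralogues were the scavenger receptors compared below, and that of *Ehd3* because it held the only motif match. Each is printed 5′ to 3′ on the gene's strand as 280 bases, ending 30 bases into the gene, at chr10:87007913-87008192 (minus strand) for *Stab2*, chr14:31168612-31168891 (minus strand) for *Stab1* and chr17:73804591-73804870 (plus strand) for *Ehd3*, with the motif match in capitals.
Stab2: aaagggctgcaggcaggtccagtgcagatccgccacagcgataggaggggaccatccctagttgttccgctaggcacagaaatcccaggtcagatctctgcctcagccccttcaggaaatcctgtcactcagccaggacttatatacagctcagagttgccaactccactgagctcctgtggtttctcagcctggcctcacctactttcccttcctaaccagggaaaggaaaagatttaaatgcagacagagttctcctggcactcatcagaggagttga
Stab1: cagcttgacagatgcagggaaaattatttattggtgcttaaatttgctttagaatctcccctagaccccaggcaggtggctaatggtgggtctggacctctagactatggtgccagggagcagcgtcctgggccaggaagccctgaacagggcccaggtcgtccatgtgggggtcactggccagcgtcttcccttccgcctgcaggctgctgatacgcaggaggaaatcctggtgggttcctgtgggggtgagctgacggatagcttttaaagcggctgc
Ehd3: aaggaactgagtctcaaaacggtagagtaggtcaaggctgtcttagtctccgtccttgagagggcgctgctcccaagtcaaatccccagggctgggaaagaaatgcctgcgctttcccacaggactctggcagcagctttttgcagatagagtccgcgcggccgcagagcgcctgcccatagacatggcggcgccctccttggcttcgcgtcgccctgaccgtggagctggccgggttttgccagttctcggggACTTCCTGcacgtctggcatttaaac
The motif in capitals is CNGGAAGT read on the opposite strand, a form of the element bound by ETS factors, which act at many endothelial genes. It began at position 5 after the start of *Ehd3* and was found in 1 of the 6 sequences, against 9.53% of 32851 promoters of the same length. The letters TTCNNNGAA, the spacing shared by BCL6 and STAT sites, were in 0 of the 6 and in 8.3% of all promoters. The inverted repeat of FXR, AGGTCA and TGACCT around 1 base, was in 0 of the 6 and in 0.00913% of all promoters. Only 3 of the 32851 hold this exact repeat, so its absence from the 6 cannot show whether they hold FXR sites. Both strands were searched. The ETS form and the BCL6 and STAT form can share the letters TTC or GAA, and no such overlap occurred in the 6. The GC content ran from 51% in the *Clec4g* promoter to 61.7% in that of *Ehd3*, with a median of 52.7% over all promoters.

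The libraries held between 7586241 and 11839503 counts on genes, so 3 counts, taken as the floor of detection, correspond to between 0.253 and 0.395 CPM (counts scaled to 1e+06 per library), from the unscaled totals, which covers counting error only. *Bcl6* was at 49.6 ± 19.4 CPM in FxrKO livers and 7.44 ± 3.24 CPM in Bcl6LKOFxrKO livers (SD, n = 4), and the groups did not overlap, as the labels have it. Reads of *Nr1h4* were still counted in both groups, at 60.0 ± 2.46 and 43.5 ± 3.69 CPM (SD, n = 4). Every Bcl6LKOFxrKO liver lay below every FxrKO liver for this gene. Its log2 fold change was -0.46 (adjusted p = 0.00497 in the edgeR test described below). *Alb* took 4.04% to 5.16% of all counts in FxrKO livers and 11.9% to 13.2% in Bcl6LKOFxrKO livers, so the share left for other genes differed between the genotypes. CPM of genes were therefore computed with trimmed mean of M-values (TMM) factors, also for *Bcl6* and *Nr1h4* above. These factors put the median log2 fold change of all tested genes at 0.01. Scaling to total counts alone moved all genes by a median of -0.16 on the log2 scale.

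*Stab2* and *Plvap* rose in Bcl6LKOFxrKO livers, *Lyve1* and *Oit3* had the only log2 fold changes below 0, and no marker fell. In the quasi-likelihood test of edgeR, with p-values adjusted by Benjamini and Hochberg's method, 2 of the 10 markers passed an adjusted p under 0.05 in the upward direction, where 16.2% of all tested genes did. In the downward direction 0 of the 10 passed, where 13.5% of all tested genes did, and 0 markers with a log2 fold change below 0 had an unadjusted p under 0.05 in edgeR or were called lower by DESeq2 or limma voom. The share of markers called higher was thus near that of all genes. The median log2 fold change of the 10 was 0.34 against 0.01 for all tested genes, and 8 of the 10 were above 0, also when libraries were scaled to total counts alone. That median was 0.22 without Bcl6LKOFxrKO liver 3, 0.224 without FxrKO liver 1, 0.426 without Bcl6LKOFxrKO liver 2 and 0.186 with total counts alone. At an unadjusted p under 0.05 there were 4, *Stab1* and *Clec4g* beside the called pair. In 2 of the 10 markers all Bcl6LKOFxrKO livers lay above all FxrKO livers, where 16.1% of all tested genes were separated in this way. In 0 of the 10 they lay below, where 15.2% of all tested genes did.

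**Figure D1:**
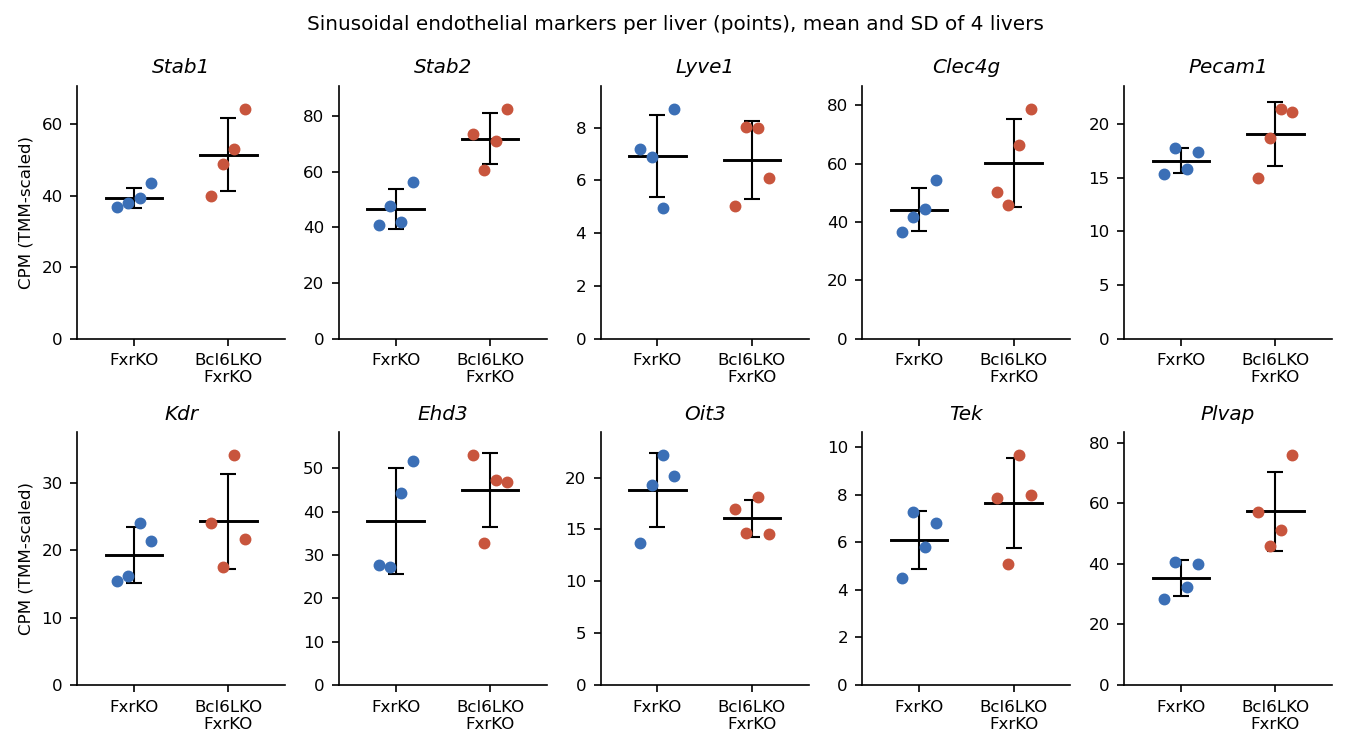
TMM-scaled CPM (linear axis from 0) of each of the 10 markers in 4 FxrKO livers (blue) and 4 Bcl6LKOFxrKO livers (red), in the order of their numbers. Horizontal lines are means and error bars are SDs (n = 4). *Stab2* and *Plvap* are the 2 markers in which the genotypes do not overlap.

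*Stab2* and *Stab1* encode the stabilins, large scavenger receptors that take up ligands from blood, hyaluronan among them for the *Stab2* product. *Stab2* (NM_138673, mm10 chromosome 10 from 86841210 to 87007942, minus strand) was at 40.7, 47.5, 41.9 and 56.3 CPM in FxrKO livers 1 to 4 and at 73.4, 60.4, 71.1 and 82.5 CPM in Bcl6LKOFxrKO livers 1 to 4. Every Bcl6LKOFxrKO liver was above the highest FxrKO liver, liver 4. The mean rose from 46.6 ± 7.11 to 71.9 ± 9.08 CPM (SD, n = 4), a 1.54-fold difference and a log2 fold change of 0.63 (standard error, SE, 0.13, edgeR adjusted p = 0.00365). In the exact two-sided permutation test p was 0.0286, the smallest value that 8 livers can give.

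For *Stab1* (NM_138672, chromosome 14 from 31139017 to 31168641, minus strand) the values were 36.9, 38.0, 39.3 and 43.4 CPM in FxrKO livers and 39.8, 48.8, 53.1 and 64.3 CPM in Bcl6LKOFxrKO livers. The groups overlapped through Bcl6LKOFxrKO liver 1, which lay below FxrKO liver 4. The log2 fold change of 0.39 (SE 0.14, 95% interval from 0.08 to 0.69) had an edgeR adjusted p of 0.0548, and the exact permutation test gave p = 0.0571. Without Bcl6LKOFxrKO liver 1 it was 0.49, with an adjusted p of 0.0185. Whether *Stab2* and *Stab1* differed in their response was not tested. *Stab1* was the only marker whose span overlaps another gene, *Nt5dc2* on the opposite strand, which had at most 76 counts in a liver.

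*Lyve1* encodes a hyaluronan receptor of sinusoidal and lymphatic endothelium that is also found on some macrophages. *Lyve1* (NM_053247, chromosome 7 from 110850607 to 110862953, minus strand) was at 7.18, 6.87, 4.94 and 8.70 CPM in FxrKO livers and at 5.04, 8.01, 7.99 and 6.08 CPM in Bcl6LKOFxrKO livers. The lowest and the highest of the 8 values were both in FxrKO livers. Its log2 fold change was -0.04 (SE 0.22, edgeR adjusted p = 0.9125), and the 95% interval ran from -0.51 to 0.43. The sign was not stable: the log2 fold change was 0.09 without FxrKO liver 4, 0.08 without Bcl6LKOFxrKO liver 1 and 0.01 without Bcl6LKOFxrKO liver 4.

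*Clec4g*, the gene of the lectin LSECtin (NM_029465, chromosome 8 from 3716071 to 3720651, minus strand), was at 36.4, 41.7, 44.5 and 54.2 CPM in FxrKO livers and at 50.4, 45.8, 66.2 and 78.7 CPM in Bcl6LKOFxrKO livers. Livers 3 and 4 of Bcl6LKOFxrKO mice were above all FxrKO livers, and livers 1 and 2 lay within their range. The log2 fold change of 0.45 (SE 0.18, 95% interval from 0.07 to 0.83) missed the threshold at an edgeR adjusted p of 0.0723, and p was 0.114 in the exact permutation test. It passed without FxrKO liver 4, with an adjusted p of 0.0441 and a log2 fold change of 0.56, and without Bcl6LKOFxrKO liver 2, with an adjusted p of 0.0302 and a log2 fold change of 0.55. Without Bcl6LKOFxrKO liver 4, the highest liver, it was 0.29, with an adjusted p of 0.187.

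*Kdr* and *Tek* encode the receptor tyrosine kinases for VEGF and the angiopoietins, through which endothelial survival and vessel stability are controlled. *Kdr* (NM_010612, chromosome 5 from 75933270 to 75978428, minus strand) was at 15.4, 16.2, 24.1 and 21.4 CPM in FxrKO livers and at 24.1, 17.5, 34.1 and 21.6 CPM in Bcl6LKOFxrKO livers. Only Bcl6LKOFxrKO liver 3 lay clear of the FxrKO range. The log2 fold change was 0.34 (SE 0.21, 95% interval from -0.11 to 0.78, edgeR adjusted p = 0.240), and without that liver it was 0.13, with an adjusted p of 0.634. *Tek* (NM_001290549, chromosome 4 from 94739289 to 94874976, plus strand) had 4.47, 7.25, 5.80 and 6.81 CPM in FxrKO livers and 7.86, 5.10, 9.64 and 7.99 CPM in Bcl6LKOFxrKO livers. Livers 1, 3 and 4 of Bcl6LKOFxrKO mice were above the FxrKO range and liver 2 was near its lower end. Its log2 fold change was also 0.34 (SE 0.22, 95% interval from -0.14 to 0.82, edgeR adjusted p = 0.269), and it was 0.21 without either FxrKO liver 1 or Bcl6LKOFxrKO liver 3.

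*Plvap* encodes the protein of the diaphragms that span fenestrae and caveolae in many vessels. *Plvap* (NM_032398, chromosome 8 from 71497753 to 71511769, minus strand) was at 28.5, 40.5, 32.5 and 39.9 CPM in FxrKO livers and at 57.0, 45.9, 51.1 and 75.8 CPM in Bcl6LKOFxrKO livers. The genotypes did not overlap, and liver 4 was the highest Bcl6LKOFxrKO liver for this gene as for *Stab1*, *Stab2* and *Clec4g*. The mean rose from 35.3 ± 5.84 to 57.5 ± 13.1 CPM (SD, n = 4), a 1.63-fold difference and a log2 fold change of 0.70 (SE 0.17, edgeR adjusted p = 0.00673), with p = 0.0286 in the exact permutation test.

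*Pecam1*, the junctional adhesion molecule CD31 of all endothelium and of platelets and some leukocytes (NM_001305157, chromosome 11 from 106654213 to 106715281, minus strand), was at 15.4, 17.7, 15.8 and 17.4 CPM in FxrKO livers and at 15.0, 18.7, 21.4 and 21.2 CPM in Bcl6LKOFxrKO livers. The lowest value of all 8 was in Bcl6LKOFxrKO liver 1 and the highest 3 were in the other Bcl6LKOFxrKO livers. The log2 fold change was 0.20 (SE 0.14, 95% interval from -0.10 to 0.51, edgeR adjusted p = 0.306), and 0.30 without Bcl6LKOFxrKO liver 1.

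*Ehd3* encodes an ATPase of endocytic membrane traffic that in liver marks sinusoidal endothelium. *Ehd3* (NM_020578, chromosome 17 from 73804841 to 73832093, plus strand) was at 27.8, 27.2, 44.3 and 51.8 CPM in FxrKO livers and at 53.0, 32.9, 47.2 and 46.9 CPM in Bcl6LKOFxrKO livers. FxrKO livers fell into a lower and a higher pair for this gene, and the higher pair lay among the Bcl6LKOFxrKO livers. The log2 fold change was 0.25 (SE 0.22, 95% interval from -0.22 to 0.73, edgeR adjusted p = 0.413). It was 0.12 without either FxrKO liver of the lower pair, 0.16 without Bcl6LKOFxrKO liver 1 and 0.44 without FxrKO liver 4.

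*Oit3* (NM_010959, chromosome 10 from 59422960 to 59441779, minus strand), a secreted zona pellucida domain protein gene, was at 13.7, 19.2, 22.1 and 20.2 CPM in FxrKO livers and at 17.0, 14.7, 18.1 and 14.5 CPM in Bcl6LKOFxrKO livers. All Bcl6LKOFxrKO livers were below FxrKO livers 2 to 4 and above FxrKO liver 1. The log2 fold change of -0.23 (SE 0.16, 95% interval from -0.57 to 0.12) had an edgeR adjusted p of 0.312. It was -0.35 without FxrKO liver 1 and -0.14 without FxrKO liver 3.

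**Figure D2:**
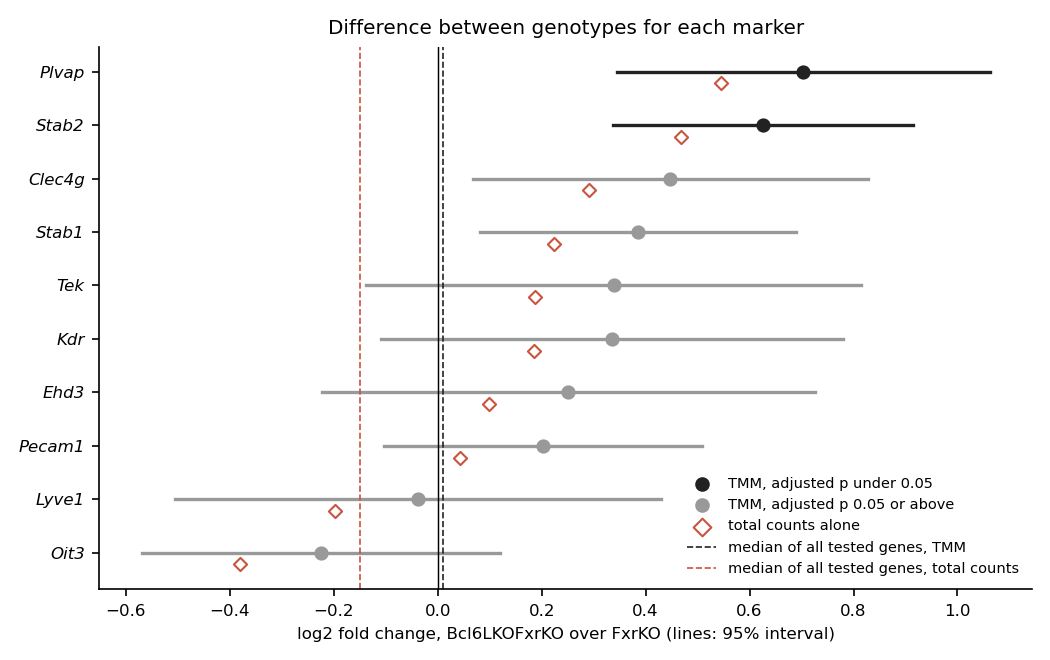
Log2 fold change of Bcl6LKOFxrKO over FxrKO livers for each marker (points, with 95% intervals from edgeR as lines) and with libraries scaled to total counts alone (diamonds). Dashed lines are the medians of all tested genes under each scaling, 0.01 and -0.15. The intervals of *Stab2*, *Plvap*, *Stab1* and *Clec4g* lie above 0, and the adjusted p of *Stab2* and *Plvap* was under 0.05.

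The same livers were high or low for several markers at once. FxrKO liver 1 had the lowest value of its genotype for 8 of the 10 markers and FxrKO liver 4 had the highest for 5. Among Bcl6LKOFxrKO livers, liver 2 was lowest for 6 markers, and livers 3 and 4 were highest for 4 each. The summed level of the 10 markers was 227, 262, 275 and 320 CPM in FxrKO livers and 343, 298, 380 and 420 CPM in Bcl6LKOFxrKO livers, so the sums overlapped through Bcl6LKOFxrKO liver 2. The tested genes outside the 10 that followed this sum most closely over the 8 livers, by the root mean square difference between centred log2(CPM + 1) values, were *Map3k4* (0.0816), *Gimap4* (0.0837), *Pop4* (0.0951), *Eng* (0.0971) and *Mrps28* (0.101).

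Per kilobase of transcript, *Clec4g* had the highest level of the 10 in FxrKO livers, 36.1 ± 6.09 CPM per kilobase (SD, n = 4). It was followed by *Plvap* (17.6 ± 2.91), *Ehd3* (10.3 ± 3.35), *Oit3* (6.96 ± 1.33), *Stab2* (5.78 ± 0.882), *Pecam1* (5.004 ± 0.350) and *Stab1* (4.98 ± 0.359) on the same scale. *Kdr* (3.56 ± 0.766), *Lyve1* (2.66 ± 0.594) and *Tek* (1.30 ± 0.264) had the lowest levels. Between neighbours in this order, the ranges of the 4 livers did not overlap for *Clec4g* and *Plvap*, *Plvap* and *Ehd3*, *Stab1* and *Kdr*, and *Lyve1* and *Tek*, and they overlapped for the other pairs. In Bcl6LKOFxrKO livers, *Clec4g* (49.2 ± 12.3), *Plvap* (28.6 ± 6.50) and *Ehd3* (12.3 ± 2.34) again led, *Stab2* (8.92 ± 1.13) and *Stab1* (6.50 ± 1.28) stood before *Oit3* (5.95 ± 0.654) and *Pecam1* (5.75 ± 0.898), and *Kdr*, *Lyve1* and *Tek* were again last. There the ranges of neighbours did not overlap for *Plvap* and *Ehd3* and for *Kdr* and *Lyve1*.

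Within each liver the markers were also set against *Cdh5*, the gene of the endothelial junction protein VE-cadherin, since such a ratio does not depend on how libraries are scaled. *Cdh5* was at 18.3, 23.9, 22.4 and 27.3 CPM in FxrKO livers and at 22.3, 22.5, 23.6 and 19.9 CPM in Bcl6LKOFxrKO livers, with a log2 fold change of -0.06 (95% interval from -0.36 to 0.24, edgeR adjusted p = 0.773) that was 0.03 without FxrKO liver 4. Of 23 tested pan-endothelial genes 22 had a log2 fold change above 0, with a list median of 0.43, and *Cdh5* was the exception. A denominator with a higher log2 fold change gives lower ratio differences. For each count of *Cdh5* there were 2.22, 1.99, 1.88 and 2.06 counts of *Stab2* in FxrKO livers and 3.30, 2.69, 3.02 and 4.15 in Bcl6LKOFxrKO livers. The ratio of *Plvap* was 1.56, 1.70, 1.45 and 1.46 in FxrKO livers and 2.56, 2.04, 2.17 and 3.81 in Bcl6LKOFxrKO livers. *Clec4g*, whose CPM overlapped, had ratios of 1.99, 1.75, 1.99 and 1.98 in FxrKO livers and 2.26, 2.04, 2.81 and 3.96 in Bcl6LKOFxrKO livers.

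These 3 markers did not overlap between the genotypes relative to *Cdh5*, with differences of the log2 ratio of 0.68 for *Stab2*, 0.74 for *Plvap* and 0.48 for *Clec4g*. Of 12339 tested genes other than *Cdh5*, 12.2% were separated upward in this ratio, and 9.41% were separated downward, where 0 of the 10 markers were. Without Bcl6LKOFxrKO liver 4 the difference of *Clec4g* was 0.287. Each had p = 0.0286 in the exact two-sided permutation test and an adjusted p of 0.0952 over the 10 markers in that exact test. An adjusted p under 0.05 would have needed 6 of the 10 at the smallest p that 70 orderings of the livers allow, and 0 of the 10 had one, with 3 at an unadjusted p under 0.05. The differences of the other 7 were 0.41 for *Stab1*, 0.36 for *Kdr*, 0.36 for *Tek*, 0.34 for *Ehd3*, 0.24 for *Pecam1*, 0.02 for *Lyve1* and -0.16 for *Oit3*, with exact p between 0.0571 and 0.971. The denominator mattered. *Egfl7*, another endothelial gene, had a log2 fold change of 0.50 (edgeR adjusted p = 0.0539, and 0.0466 without FxrKO liver 3 or 0.0255 without Bcl6LKOFxrKO liver 1), and relative to it *Clec4g*, *Stab1*, *Kdr*, *Tek*, *Ehd3*, *Pecam1* and *Lyve1* changed sign, whereas *Stab2* and *Plvap* were at 0.155 and 0.217, each with an adjusted exact permutation p of 0.635, and *Oit3* at -0.68. Relative to the summed CPM of *Cdh5*, *Tie1*, *Egfl7*, *Esam*, *Robo4* and *Eng*, the differences were 0.298 for *Stab2* and 0.359 for *Plvap*, with adjusted exact permutation p of 0.143 and 0.286, and 0.0972 for *Clec4g*.

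**Figure D3:**
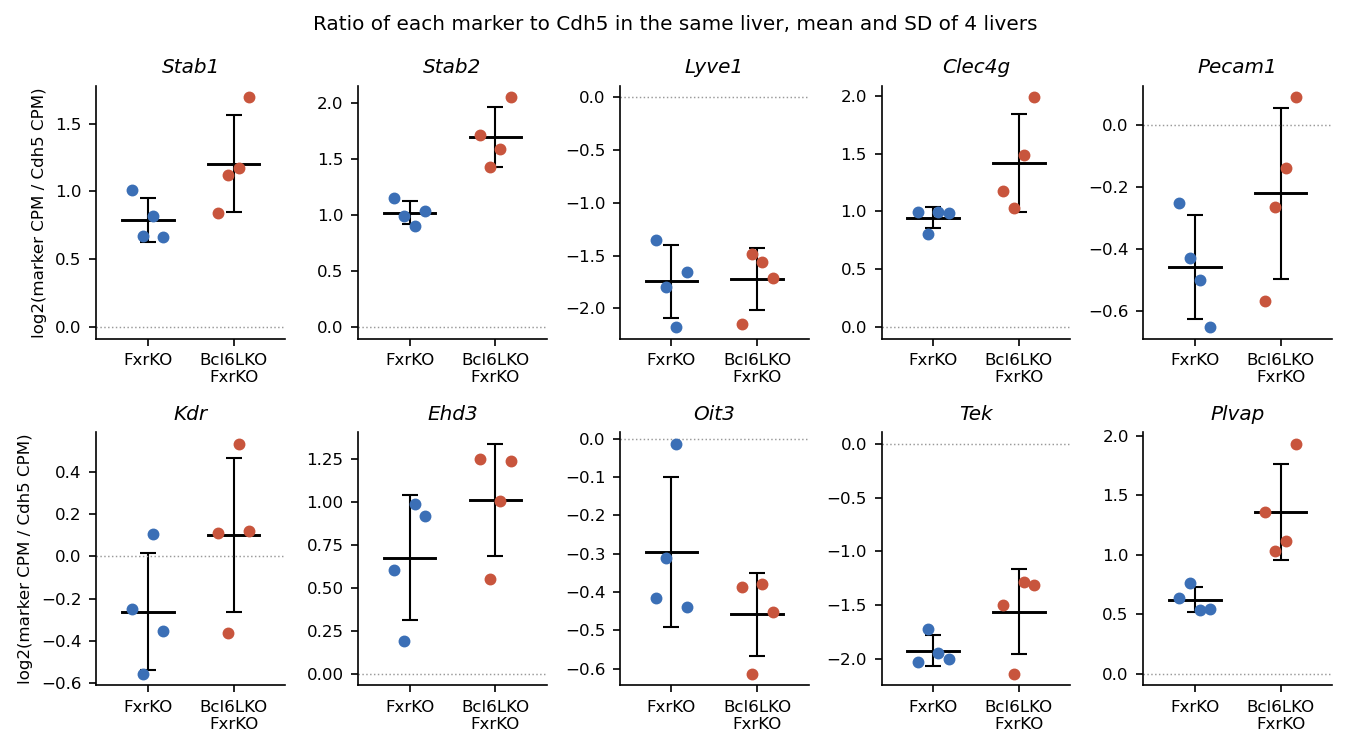
Log2 ratio of each marker's CPM to that of *Cdh5* in the same liver (points, blue for FxrKO and red for Bcl6LKOFxrKO), with means and SDs of 4 livers; axes do not start at 0, and the dotted line marks equal levels where it falls in the panel. *Stab2*, *Clec4g* and *Plvap* do not overlap between the genotypes.

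The ligands and the other receptors of the VEGF and angiopoietin pathways were looked at as a list. Of all tested genes 16.2% were called higher and 13.5% lower. Of 8 ligand genes, 5 were tested and 0 were called by edgeR, DESeq2 or limma voom, with 0 at an unadjusted p under 0.05 in edgeR. *Vegfa*, the main ligand of the *Kdr* product, was at 137 ± 9.30 CPM in FxrKO livers and 127 ± 10.4 CPM in Bcl6LKOFxrKO livers (SD, n = 4), a log2 fold change of -0.11 (95% interval from -0.34 to 0.11, edgeR adjusted p = 0.446). The log2 fold changes of *Vegfb*, *Vegfc*, *Vegfd* and the *Tek* ligand gene *Angpt2* lay between 0.20 and 0.32 and did not pass, although *Vegfb* did without FxrKO liver 1, at an adjusted p of 0.0342. Without Bcl6LKOFxrKO liver 2 the value of *Vegfc* was -0.06, and without FxrKO liver 2 that of *Vegfd* was -0.0038. *Pgf*, *Angpt1* and *Angpt4* had too few counts to be tested.

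*Nrp1*, a coreceptor that presents VEGF to the *Kdr* product and that other cells also express, fell. It was at 94.3, 94.97, 106 and 98.0 CPM in FxrKO livers and at 39.3, 57.8, 48.3 and 41.9 CPM in Bcl6LKOFxrKO livers. Every Bcl6LKOFxrKO liver lay below the lowest FxrKO liver, and the log2 fold change was -1.07 (SE 0.13, edgeR adjusted p = 4.89e-05). Of the 9 receptors and partners, *Kdr* and *Tek* included, *Svep1* and *Flt4* rose and *Nrp1* alone fell. *Svep1*, a matrix protein linked to the Tie receptors, went from 2.07 ± 0.574 to 5.48 ± 2.01 CPM (SD, n = 4), a log2 fold change of 1.37 (edgeR adjusted p = 0.00353). *Flt4*, the gene of the VEGF-C receptor, had a log2 fold change of 0.50 (edgeR adjusted p = 0.037). It lost its call without any of FxrKO livers 1 to 3 or Bcl6LKOFxrKO livers 2 to 4, with adjusted p between 0.057 and 0.104. *Flt1*, *Nrp2* and *Tie1* had log2 fold changes between 0.31 and 0.36 and none of the 3 passed. *Ptprb*, the gene of a phosphatase that acts on the *Tek* product, was at 0.03, with a sign that depended on scaling and on single livers: it was -0.13 with total counts alone, -0.06 without FxrKO liver 1 and -0.105 without Bcl6LKOFxrKO liver 3.

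**Figure D4:**
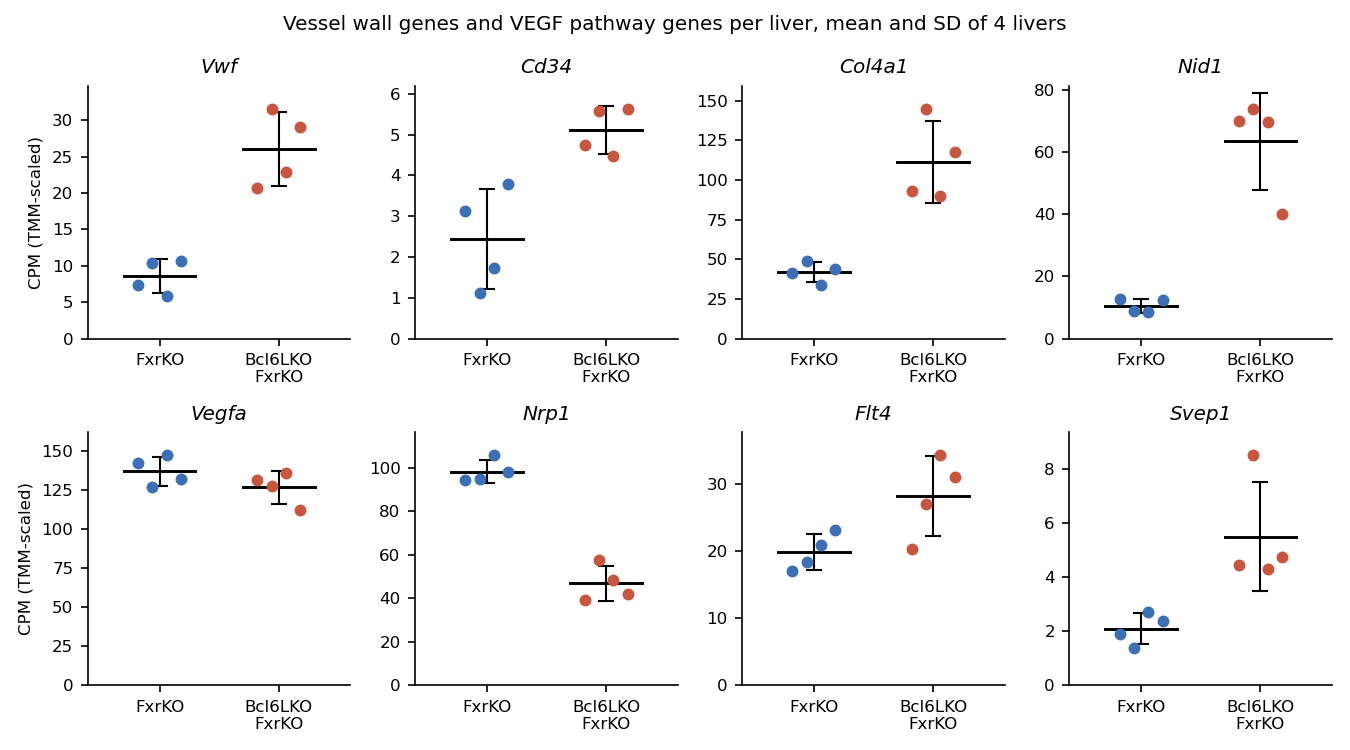
TMM-scaled CPM (linear axis from 0) of 4 genes of continuous vessels and basement membrane and 4 genes of the VEGF and angiopoietin pathways in 4 FxrKO livers (blue) and 4 Bcl6LKOFxrKO livers (red), with means and SDs. *Vwf*, *Cd34*, *Col4a1*, *Nid1* and *Svep1* are higher in every Bcl6LKOFxrKO liver, *Nrp1* is lower in every one, and *Vegfa* and *Flt4* overlap.

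Many genes linked to capillarization, that is to continuous vessels and basement membrane, rose. Of 18 such genes 15 were tested, 11 were called higher and 0 lower by edgeR, 0 were lower at an unadjusted p under 0.05, and the median log2 fold change was 0.90. Among all tested genes 16.2% were called higher and 13.5% lower. How this list differs from the 10 markers was not tested. *Nid1*, the gene of the basement membrane linker nidogen, ranged from 8.38 to 12.6 CPM in FxrKO livers and from 40.2 to 73.9 CPM in Bcl6LKOFxrKO livers. *Vwf*, the von Willebrand factor gene, which is low in healthy sinusoids, was at 7.39, 10.4, 5.91 and 10.7 CPM in FxrKO livers and at 20.6, 31.6, 22.9 and 29.1 CPM in Bcl6LKOFxrKO livers. Both genes and the basement membrane collagen gene *Col4a1* were separated between the genotypes. Their log2 fold changes were 2.58 for *Nid1*, 1.597 for *Vwf* and 1.41 for *Col4a1*, with adjusted p of 2.15e-06, 8.26e-05 and 4.45e-05 from edgeR. *Cd34*, a surface sialomucin gene of continuous vessels, had a log2 fold change of 1.03 (edgeR adjusted p = 0.0221) and lost its call without FxrKO liver 2 or FxrKO liver 3, with adjusted p of 0.0513 and 0.0677. Basement membrane genes are also expressed by stellate and other mesenchymal cells. Without 1 liver the count called higher was between 8 and 11.

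*Cd36*, *Cldn5* and *Bmp6* led the rises among other genes of sinusoidal endothelium. Of 19 such genes 16 were tested, 5 were called higher and 0 lower, with 0 lower at an unadjusted p under 0.05 in edgeR, and the median log2 fold change was 0.36. The share of all tested genes called higher was 16.2%. *Cd36*, a fatty acid and scavenger receptor gene that hepatocytes and macrophages also use, had a log2 fold change of 0.99, the tight junction gene *Cldn5* one of 0.996 and *Bmp6*, the endothelial signal for hepcidin, one of 0.83, with adjusted p of 0.00058, 0.00736 and 0.0315 from edgeR. *Bmp6* lost its call without any of FxrKO livers 1, 2 and 4 or Bcl6LKOFxrKO livers 1 to 3, with adjusted p between 0.0543 and 0.0821. The count called higher fell to 2 without FxrKO liver 1, FxrKO liver 2, Bcl6LKOFxrKO liver 1 or Bcl6LKOFxrKO liver 3, and to 3 without FxrKO liver 4.

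Of 24 pan-endothelial genes 23 were tested, and 5 were called higher and 0 lower, with 0 lower at an unadjusted p under 0.05 in edgeR and a median log2 fold change of 0.43. For comparison, 16.2% of all tested genes were called higher and 13.5% lower. Of the 5, *Vwf*, *Cldn5*, *Cd34* and *Flt4* are also in other lists here. The other was *Eng*, the gene of the BMP coreceptor endoglin, with a log2 fold change of 0.45 (edgeR adjusted p = 0.012, 0.0797 with total counts alone). Without FxrKO liver 2 the count was 3. Of 6 lymphatic genes 3 were tested, of which *Flt4* and *Reln* rose and *Prox1*, a transcription factor gene that hepatocytes also express, fell, with log2 fold changes of 0.77 for *Reln* and -0.82 for *Prox1*. *Reln* is also in the list of stellate cell markers, and the call of *Flt4* depended on single livers. The other genes of this list had too few counts to be tested. Of 10 adhesion and shear response genes 8 were tested and 1 rose, the leukocyte adhesion molecule gene *Vcam1*, with a log2 fold change of 1.05 (edgeR adjusted p = 0.00834). A second gene of this list was called without FxrKO liver 1 or FxrKO liver 4. Over all endothelial lists together, without the 10 markers, 68 of 82 genes were tested, 21 were called higher and 2 lower, and the median log2 fold change was 0.42.

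Markers of other liver cell types moved in the same livers, where 16.2% of all tested genes were called higher and 13.5% lower. Of 8 stellate cell markers 7 were tested, 6 were called higher, and their summed level was 73.2 to 93.6 CPM in FxrKO livers and 141 to 168 CPM in Bcl6LKOFxrKO livers. *Pdgfrb*, *Colec11* and *Reln* had log2 fold changes of 1.06, 0.99 and 0.77. Of 8 smooth muscle and portal fibroblast markers 7 were tested and 4 rose, among them *Thy1*, *Tagln* and *Myh11* with log2 fold changes of 1.41, 0.82 and 1.11, and the sums were 95.2 to 172 CPM and 160 to 287 CPM. Without Bcl6LKOFxrKO liver 3 this count was 7 and without FxrKO liver 1 it was 6. The genotypes did not overlap in the sum of the stellate cell markers, whereas the sums of the smooth muscle markers overlapped.

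Of 8 Kupffer cell and macrophage markers, all tested, 1 rose, *Cd68*, with a log2 fold change of 0.93 (edgeR adjusted p = 0.00211), and the summed levels of 343 to 472 CPM in FxrKO livers and 418 to 755 CPM in Bcl6LKOFxrKO livers overlapped. The count was 2 without FxrKO liver 2, Bcl6LKOFxrKO liver 2 or Bcl6LKOFxrKO liver 3. Again, 16.2% of all tested genes were called higher. Among 8 cholangiocyte markers 5 were tested and *Spp1* and *Krt19* rose, with log2 fold changes of 1.004 and 1.28, and the sums were 58.4 to 85.3 CPM and 92.3 to 157 CPM. *Krt19* lost its call without any of FxrKO livers 2 to 4 or Bcl6LKOFxrKO livers 1, 2 and 4, with adjusted p between 0.0524 and 0.0807 from edgeR, and the count was 3 without FxrKO liver 1. *Sox9*, also in this list, went the other way, with a log2 fold change of -0.81 (unadjusted p = 0.0267 and adjusted p = 0.0773 from edgeR). It was at 4.37 ± 2.02 CPM in FxrKO livers and 2.52 ± 0.697 CPM in Bcl6LKOFxrKO livers (SD, n = 4). Without FxrKO liver 3, or with total counts alone, 1 cholangiocyte marker was called lower. Only 1 of the T and B cell markers had enough counts to be tested, and it was not called by edgeR, while DESeq2 called 1 gene of the list higher. The sums of these markers were at most 5.80 CPM in FxrKO livers and 10.4 CPM in Bcl6LKOFxrKO livers.

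Hepatocyte markers went both ways: *Alb* and *Apoc3* rose, with log2 fold changes of 1.605 and 0.58, *Serpina1c* and *Ttr* fell, with -1.54 and -0.76, and 4 of the 8 did not pass. The count called lower was 3 without FxrKO liver 1 or Bcl6LKOFxrKO liver 2. The summed hepatocyte level, mostly *Alb*, was 56764 to 70300 CPM in FxrKO livers and 146992 to 163892 CPM in Bcl6LKOFxrKO livers. Of the 47 markers of other cell types in the table, 36 were tested, 15 were called higher and 2 lower, and the median log2 fold change was 0.76. Among all tested genes 16.2% were called higher and 13.5% lower. No marker was at 0 in all 8 livers, and the part of other cell types in the values of the 10 endothelial markers was not tested.

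**Figure D5:**
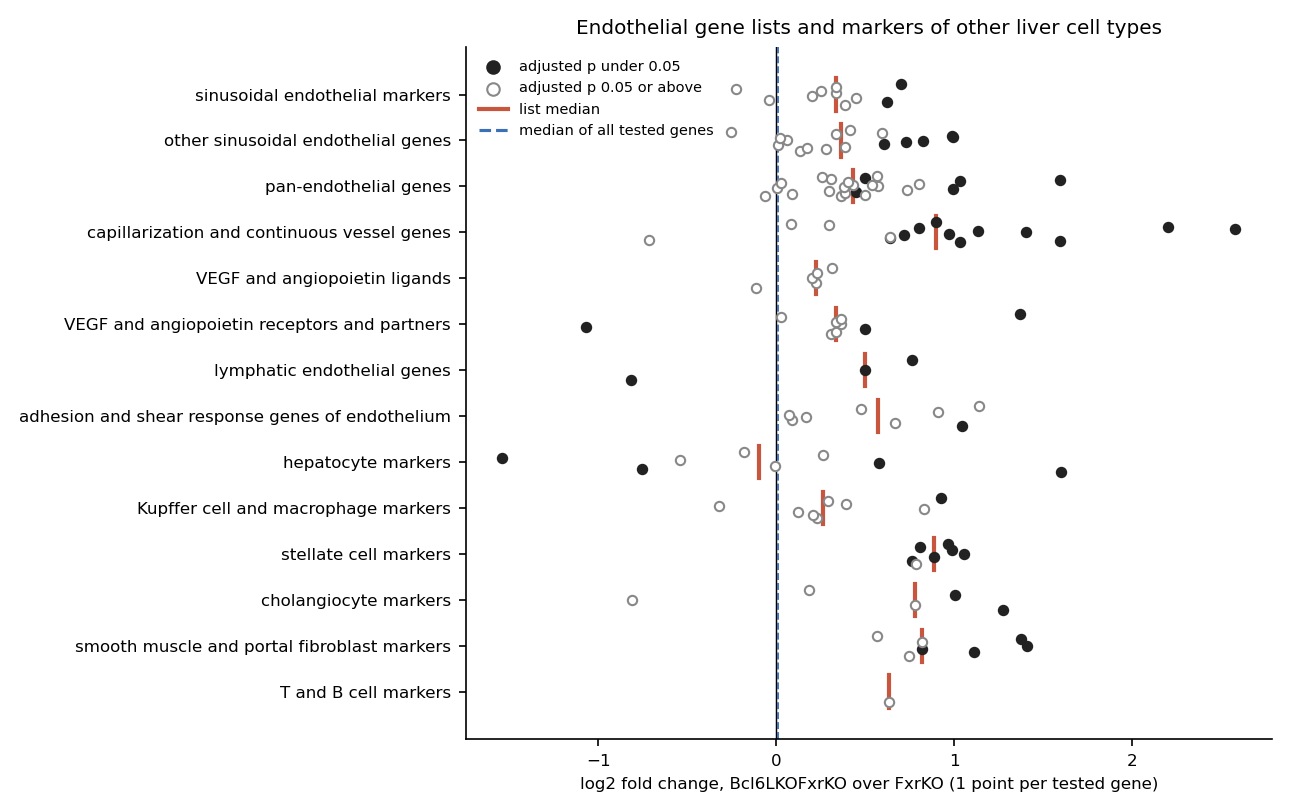
Log2 fold change of Bcl6LKOFxrKO over FxrKO livers for every tested gene of the endothelial lists and of the marker lists of other cell types, with a gene shown in each list that holds it. Filled points had an adjusted p under 0.05, red lines are list medians and the dashed line is the median of all tested genes. The medians were 0.34 for the 10 sinusoidal markers, 0.90 for capillarization genes and 0.89 for stellate cell markers.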

How the data were processed

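Liver RNA of 4 FxrKO and 4 Bcl6LKOFxrKO males was grouped by the genotypes of the sample labels, which give separate mice and no batch or pairing. The authors made polyA libraries with a stranded kit, read 100 bases from one end, aligned them to the mm10 genome (STAR 2.5.2), discarded reads with several locations or over 4 mismatches, and deposited unnormalized exon counts of 1 transcript a gene (HOMER 4.10). The strand setting is not given in the sources used here, so counts of overlapping genes are uncertain. Here edgeR 4.0.16 in R 4.3.3 was run on the counts (filterByExpr, TMM, robust quasi-likelihood fit, Benjamini-Hochberg adjustment over 12340 tested genes). TMM factors enter the CPM. Two-sided exact permutation tests used the 70 orderings of the livers. The script was tested on simulated data.

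The 10 markers, the gene lists and the tests were chosen with earlier results of these data known. Genes named are the 10 markers, the VEGF and angiopoietin genes, *Cdh5*, *Bcl6* and *Nr1h4* and, for each other list, the 3 called genes lowest in adjusted p, higher and lower apart, plus the 5 genes nearest to the markers' sum. *Egfl7* and the sum of 6 endothelial genes were other denominators. *Cd34* was chosen for the plot, and *Cav1* and *Sox9* for naming, after their values were seen. No pair of livers agreed within sampling noise (chi-square per degree of freedom 10.8 to 49.9). Alternatives were DESeq2 1.42.0, limma 3.58.1 voom with quality weights, total counts alone, RLE size factors, TMM without the 50 most counted genes, 2 filters, other denominators and each liver left out.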

Additional observations from a re-analysis of the deposited data

Results flagged for a closer look

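Of 68 groups of 4 livers looked at, 2 held a liver far from the other 3, where chance gives about 1 in 20. The distance from the outlying liver to its neighbour was divided by the range of the 4 livers and compared with the critical value of the Dixon test. The ratio of *Clec4g* to *Cdh5* was 1.75 in FxrKO liver 2 and 1.98 to 1.99 in the other FxrKO livers, a gap ratio of 0.968, and the 3 others lay close together. The summed level of T and B cell markers was 5.80 CPM in FxrKO liver 3 and at most 3.12 CPM in each other FxrKO liver, a gap ratio of 0.956.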

How the results depend on the processing

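No paired analysis was possible because the labels give no pairs: the numbers in the titles are not said to mark litters or days. Over 15 alternatives, of the 150 log2 fold changes of the 10 markers, 143 had the same sign and call, 4 became calls and 3 changed sign. *Stab2* and *Plvap* were called in each, with adjusted p from 0.000589 to 0.0194 and from 0.00193 to 0.0263 (edgeR, DESeq2 or limma voom). *Stab1* became a call where 10 counts were asked of every liver (log2 fold change 0.41, adjusted p = 0.0469 from edgeR), with adjusted p over its alternatives from 0.0185 to 0.228, and those of *Clec4g* ran from 0.0302 to 0.224. Without 1 liver, *Lyve1* ran from -0.175 to 0.0935. Between 2 and 3 markers were called higher, and the median of the 10 ran from 0.219 to 0.426 without 1 liver and was 0.186 with total counts alone. Of 580 values of 39 other named genes, 546 had the same sign and call, 24 lost a call (*Bmp6*, *Flt4*, *Krt19*, *Cd34* and *Eng*), 4 became calls (*Egfl7*, *Vegfb*) and 6 changed sign. *Cav1* and *Sox9* were not among the 39. *Ptprb* was at -0.126 with total counts alone. Without 1 liver the log2 fold changes ran from -0.105 to 0.103 for *Ptprb*, from -0.0038 to 0.427 for *Vegfd*, from -0.0639 to 0.331 for *Vegfc* and from -0.16 to 0.0341 for *Cdh5*. With total counts alone, 32.3% of all called genes were higher, against 54.5% with TMM, 14 wider endothelial genes were called higher, against 21, and 4 markers of other cell types lower, against 2. Without 1 liver these counts were 15 to 20 and 2 to 3, and 13 to 19 markers of other cell types were higher.

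Relative to *Egfl7* the log2 ratio differences were -0.11 for *Stab1*, -0.50 for *Lyve1*, -0.0456 for *Clec4g*, -0.28 for *Pecam1*, -0.16 for *Kdr*, -0.19 for *Ehd3* and -0.16 for *Tek*, against 0.155 for *Stab2* and 0.217 for *Plvap*. Relative to the sum of 6 endothelial genes (*Cdh5*, *Tie1*, *Egfl7*, *Esam*, *Robo4* and *Eng*) they were -0.36 for *Lyve1*, -0.14 for *Pecam1*, -0.0141 for *Kdr*, -0.0426 for *Ehd3* and -0.0141 for *Tek*, against 0.298 for *Stab2* and 0.359 for *Plvap*. On that sum *Clec4g* was at 0.0972, *Stab1* at 0.0358 and *Oit3* at -0.54. Relative to *Cdh5*, *Lyve1* ran from -0.126 to 0.158 without 1 liver and was below 0 without FxrKO liver 3 or Bcl6LKOFxrKO livers 2 or 3. A ratio difference is lower where its denominator rose more, and the log2 fold changes were -0.06 for *Cdh5* and 0.50 for *Egfl7*. Why *Cdh5* and *Egfl7* had unlike values, and why *Lyve1* depended on single livers, was not tested. A marker had 42 to 909 counts per liver, and the SE of the log2 fold change was 0.22 for *Lyve1* and *Tek*, the lowest in counts, and also for *Ehd3*. How much of these errors came from depth was not tested.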
